A study of Mus musculus with 6 samples.

Results

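Cluster 5 is a group of uterine epithelial cells from mice exposed at birth to the synthetic estrogen diethylstilbestrol (DES), and it was proposed by the study to hold cancer cells. Its members are the cells to which the authors' metadata gave the number 5 in their clustering of DES epithelium. They were 295 of the 4608 clustered DES epithelial cells with a column of counts, or 6.40% (exact Clopper-Pearson 95% interval 5.71 to 7.15%), and 1.81% of the 16312 cells of the DES library. The other 4313 cells, in 15 clusters, served as the reference. The number came from the expression of these same cells, so the differences between cluster 5 and the other clusters are given as descriptions, with no test.

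CD-1 mice received DES at 1 mg/kg/day, or the corn oil vehicle alone (CO), on neonatal days 1 to 5, and their uteri were studied when the mice were 12 months old. Single cells came from 1 DES library made from 4 pooled mice and 1 CO library made from 2 pooled mice, and cells could not be assigned to mice. Spatial transcriptomics covered 2 CO and 2 DES sections, called A and B within each group, each from 1 mouse. No group of single cells therefore has replicates, and the intervals given for single cells cover counting error only.

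The uterus is lined by a simple luminal epithelium that continues into glands, and basal or stratified cells are not a usual component of it in mice. Neonatal estrogen exposure alters the developing tract, and exposed mice develop uterine adenocarcinoma with age. OLFM4, which the study used to describe these cells, is a secreted glycoprotein known from intestinal crypts and from neutrophil granules, and RAD51B acts in the repair of DNA breaks.

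Cluster 5 held 8874000 unique molecular identifiers (UMIs) and the other clustered cells 155175137. The median cell of cluster 5 had 20596 UMIs and 4395 genes, against 25033 UMIs and 4990 genes in the other clusters, and mitochondrial transcripts made up 10.9% and 11.6% of the UMIs. The authors had removed doublets, and Scrublet called none of the 295 cells, which allows a share of such calls of up to 1.02%. It called 4 of the 4313 other clustered cells (0.0927%) and 714 of the 16312 cells of the library. There were 180 cell barcodes found in both libraries, 4 of them in cluster 5, and without those cells 100 of the genes described next as higher and all 49 of those lower were at least 2-fold different, 99 and 49 of them shared with the counts that follow.

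Of the 4 genes used to mark the cluster, each was at its highest in cluster 5 among the 16 clusters. Levels are UMIs summed over the cells of a group, as counts per 1000000 UMIs (CPM). Olfm4 stood at 685 CPM (95% Poisson interval 668 to 702) against 22.8 in the other cells, the basal keratin gene Krt5 at 645 against 43.4, Rad51b at 532 (517 to 547) against 86.8, and Prap1, a secreted protein gene of the uterine epithelium, at 8956 against 2100. The 5 epithelial markers Epcam, Krt8, Krt18, Krt19 and Cdh1 together reached 4010 CPM, above the 2547 to 3708 of the other clusters. The markers fixed for glands summed to 93.6 CPM, the lowest of the 16 clusters, with Prss29 and Spink1 at 0 in all 16. Within that list Napsa was lowest in cluster 5, at 46.4 against 123 CPM, whereas Foxa2, a transcription factor of uterine glands, was at 37.2 against 14.96 CPM and ranked 3. A longer gland list that includes Prap1 summed to 9467 CPM, the highest of the 16, and of its 4 members that reached 50 CPM, Prap1 was at least 2-fold higher and Napsa at least 2-fold lower. Among luminal markers, Wnt7a was at 39.7 against 63.9 CPM, the lowest of the 16, Lpar3 at 8.56 against 20.3 and Met at 46.3 against 37.3. Basal markers summed to 682 CPM, the highest, but Krt5 gave nearly all of that sum, and Dsc3 was at 0. The study had taken cells above 1 count for both Krt14 and Trp63 out of the DES epithelium before this clustering. In cluster 5, 149 UMIs of Krt14 and 3 of Trp63 remained. The 647 DES epithelial cells outside the 16 clusters had Krt5 at 1559 CPM, above cluster 5, Olfm4 at 216, Rad51b at 24.5 and Prap1 at 609. They held 46.6% of the library's Krt5 UMIs, against 14.1% in cluster 5. The epithelial part of the label thus had its markers and the 4 marker genes describe the cluster that they were drawn from. Whether the cells were cancer cells was not tested.

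Markers of other cell types ranged widely. Erythroid markers summed to 601 CPM in cluster 5, ranking 6, against 290.5 to 986 in the other clusters and 1241 in CO epithelium. Those of lymphocytes summed to 0.225 CPM, with Cd3e, Cd3d, Ms4a1 and Nkg7 at 0, those of neutrophils to 2.37 CPM against 1.65 to 12.6 in the other clusters, and those of eosinophils to 0. Myeloid markers reached 77.1 CPM, ranking 3 of the 16 clusters, while the others ran from 45.1 to 88.8, and within that list Csf1r (1.47 CPM) and C1qa (4.51 CPM) were highest in cluster 5 of all 16. Stromal markers summed to 118 CPM, within the 82.2 to 216 of the others, and those of mesothelium to 33.4 CPM, ranking 2. Cycling markers reached 23.1 CPM, where other clusters ran from 7.97 to 324.

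Genome-wide, 2878 genes reached 50 CPM in cluster 5 or in the other cells. Their ratio was above 1 for 1462 and below 1 for 1416. Of the 2878, 101 (3.51%) were at least 2-fold higher in cluster 5 and 49 (1.7%) at least 2-fold lower. These 150 genes are the ones this contrast itself picked out. The interval of the ratio lay wholly above 2 for 82 of the 101 and wholly below 0.5 for 34 of the 49. At the threshold, Ociad2 was the last gene inside at a ratio of 2.01 and Pla2g16 the first outside at 1.999, and among lower genes Slc7a1 was inside at 0.488 and Laptm5 outside at 0.504. Cluster 5 had the highest level of all 16 clusters for 85 of the 101 and the lowest for 25 of the 49. Over all 2878 genes it was highest for 354 and lowest for 179. The 101 and 49 were chosen for their level in cluster 5, so such ranks are partly built in. The same 2-fold rule gave 85 higher genes for cluster 13, 77 for cluster 9 and 75 for cluster 15. Cluster 5 thus had the longest list of higher genes of the 16, but not by a wide margin.

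**Figure D1:**
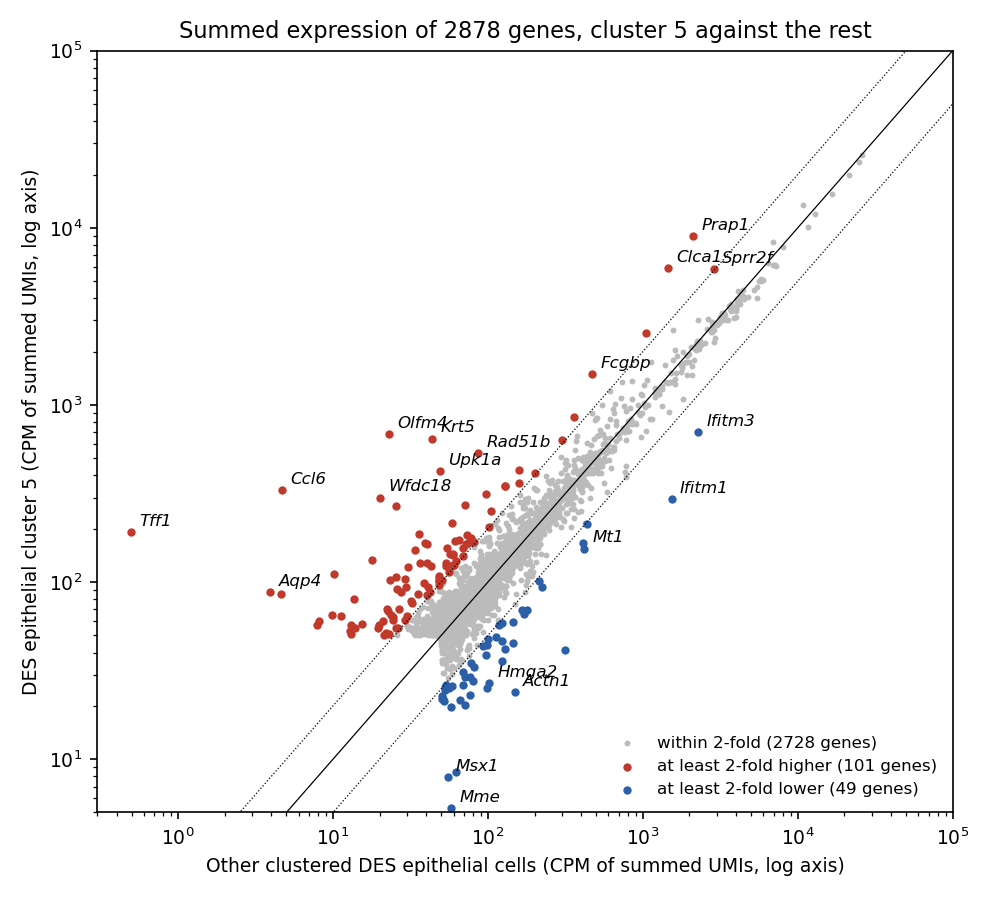
Summed expression of the 2878 genes in cluster 5 (vertical axis) against the other clustered DES epithelial cells (horizontal axis), both in CPM on log axes, with 1 point per gene. The solid line marks equal levels and the dotted lines 2-fold differences, with the 101 higher genes in red and the 49 lower genes in blue. Tff1 lies farthest from the line, at 191 against 0.496 CPM.

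The most distant gene was Tff1, which encodes a trefoil peptide secreted with mucus (chr17:31161395-31165277, minus strand, GRCm38). It stood at 191 CPM (182 to 200) in cluster 5 and at 0.496 in the other cells, a ratio of 385 (306 to 490), and the next cluster, 14, had 3.71 CPM. Tff1 was thus close to absent from every other cluster, and from CO epithelium at 0.0888 CPM. Ccl6, a chemokine gene best known in myeloid cells (chr11:83587882-83593087, minus strand), stood at 330 CPM (318 to 342) against 4.67, a ratio of 70.6. Its highest level in another epithelial cluster was 8.79 CPM. Olfm4 (chr14:79984081-80023139, plus strand) followed, with an interval of the ratio from 28.8 to 31.3, and here cluster 15 also carried the gene, at 257.5 CPM.

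Other genes at 10-fold or more were the unnamed gene AC123856.2, at 85.3 against 4.61 CPM, Aqp4, a water channel, at 87.8 against 3.93 CPM, and Wfdc18, a small secreted protein of the whey acidic protein family, at 299.8 CPM, with cluster 15 next at 137. Krt5 (chr15:101707070-101712898, minus strand) was at 14.9-fold and was also present in clusters 12 and 14 at 355 and 330.0 CPM. Ramp2, an accessory protein of the calcitonin receptor family, was at 268 CPM against 25.5, but cluster 14 exceeded it with 328 CPM. Lrmp was at 111 against 10.1 CPM. For Upk1a, a uroplakin of the urothelial surface (chr7:30603092-30612847, minus strand), the ratio was 8.58, from 421 against 49.1 CPM.

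Rad51b (chr12:79297282-79814690, plus strand) had a ratio of 6.13 (5.93 to 6.34). The other clusters ran from 41.4 to 113 CPM, so none came within 4-fold of the 532 CPM of cluster 5. Prap1 (chr7:140093395-140097200, plus strand) and Clca1, a secreted protein of mucus-producing epithelia (chr3:145003817-145032776, minus strand), were the most abundant of the 101. Prap1 was 4.27-fold higher at 8956 CPM, with cluster 1 next at 6676, and Clca1 was 4.05-fold higher at 5921 CPM, with cluster 1 next at 3064.

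**Figure D2:**
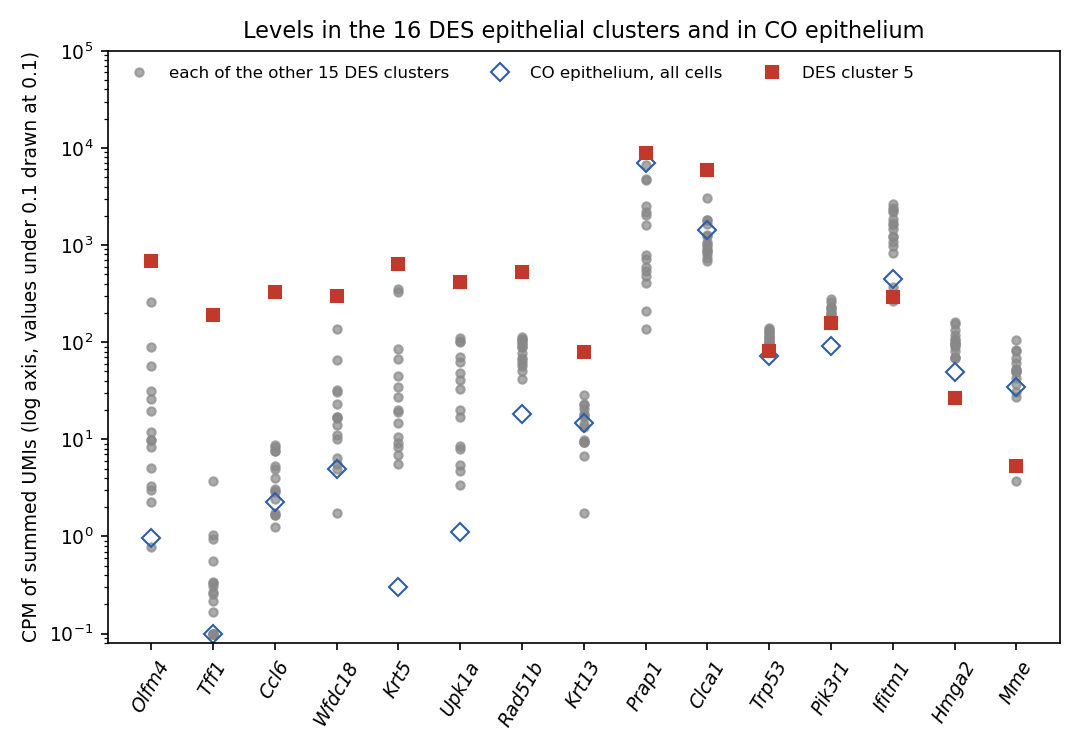
Levels of 15 genes in cluster 5 (red squares), in each of the other 15 DES clusters (grey points) and in all CO epithelial cells (blue diamonds), in CPM on a log axis with values under 0.1 drawn at 0.1. Olfm4, Tff1, Ccl6, Wfdc18, Krt5, Upk1a and Rad51b lie above every other cluster and above CO epithelium in cluster 5, whereas Mme, Hmga2 and Ifitm1 lie near or below the lowest of the others.

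The promoters of 4 of these genes are shown, from RefSeq with the GRCm38.p6 build, since 2 carry a motif match and 2 of the marker genes carry none of the 7 motifs searched on both strands. Each window runs from 250 bases before to 50 bases after the start of transcription, on the strand of the gene. The Olfm4 window (chr14:80000052-80000351, plus strand) lies inside the longer gene span given above, because the 2 annotations place the start differently. Capitals mark the match, the NF-kB motif (GGG, any 2 bases, TTTCC, here on the opposite strand) 51 bases upstream in Olfm4 and the AP-1 motif TGANTCA 196 bases upstream in Krt13 (chr11:100121517-100121816, minus strand). No match was found in the windows of Prap1 (chr7:140093146-140093445, plus strand) and Rad51b (chr12:79297032-79297331, plus strand).
Olfm4: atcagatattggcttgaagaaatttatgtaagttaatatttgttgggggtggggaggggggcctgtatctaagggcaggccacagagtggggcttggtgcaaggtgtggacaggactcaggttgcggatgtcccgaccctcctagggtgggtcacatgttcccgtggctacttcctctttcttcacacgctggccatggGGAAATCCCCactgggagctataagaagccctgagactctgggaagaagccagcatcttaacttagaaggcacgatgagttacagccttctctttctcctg
Krt13: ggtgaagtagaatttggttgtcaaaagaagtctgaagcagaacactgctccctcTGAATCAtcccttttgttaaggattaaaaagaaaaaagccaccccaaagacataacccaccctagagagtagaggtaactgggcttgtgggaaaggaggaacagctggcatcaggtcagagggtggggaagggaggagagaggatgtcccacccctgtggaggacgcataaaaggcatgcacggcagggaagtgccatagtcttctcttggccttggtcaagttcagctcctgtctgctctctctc
Prap1: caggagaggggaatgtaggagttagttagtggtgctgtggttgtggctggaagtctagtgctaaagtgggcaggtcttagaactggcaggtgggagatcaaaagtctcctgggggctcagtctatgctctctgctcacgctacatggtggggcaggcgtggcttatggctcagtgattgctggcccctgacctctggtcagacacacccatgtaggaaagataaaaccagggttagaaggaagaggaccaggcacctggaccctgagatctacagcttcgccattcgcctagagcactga
Rad51b: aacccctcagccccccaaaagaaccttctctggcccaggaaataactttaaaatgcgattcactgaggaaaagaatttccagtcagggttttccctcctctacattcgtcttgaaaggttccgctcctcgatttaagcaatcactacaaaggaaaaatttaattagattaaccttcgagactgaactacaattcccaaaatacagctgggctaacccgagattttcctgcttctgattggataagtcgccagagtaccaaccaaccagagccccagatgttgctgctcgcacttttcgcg

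Promoters were found for 73 of the 101 higher and 36 of the 49 lower genes. The NF-kB motif was in 3 of the 73 (4.11%), in 0 of the 36, in 1.64% of the 2202 promoters of genes that reached 50 CPM, and in 1.62% of the 27025 promoters of the table outside chromosome 18. The AP-1 motif was in 9.59% of the higher, 13.9% of the lower, 4.81% of the 2202 and 7.93% of all promoters. The STAT motif TTCNNNGAA was in 6.85% of the higher, 6.22% of the 2202 and 8.47% of all promoters. In the same order, the interferon response motif (TTTC, any 2 bases, TTTC) was in 5.48%, 3.32% and 3.49% and the TCF/LEF motif CTTTGATC in 1.37%, 0.772% and 0.936%. The FOX motif TGTTTAC was in 1.37%, 2.41% and 3.55%, and the estrogen response element in 0%, 0% and 0.0666%. Of the lower genes, 8.33% held the STAT, 5.56% the interferon response and 2.78% the FOX motif. A match in a window is a description of its letters and was not tested for binding.

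The higher group included 5 genes of mucus and 3 of mucosal defence. All 8 listed mucin and trefoil genes that reached 50 CPM had ratios above 1 and 5 of them passed 2-fold, with a median of 1.35 on the log2 scale against 0.00 over all 2878 genes. Apart from Tff1 these were Agr2, a disulfide isomerase needed for mucin folding, at 132 CPM against 17.8, and Muc13 at 64.9 against 9.85. Also among them were Fcgbp, a mucus-binding protein, at 1492 against 471.5, and Muc4 at 124 against 60.6. Cluster 1 had Fcgbp at 1336 CPM, and cluster 15 exceeded cluster 5 for Muc4, at 138. The whole list summed to 2587 CPM in cluster 5, the highest, against 422 to 2110 in the other clusters. Of 9 genes of antimicrobial and mucosal defence, 3 passed 2-fold and none was lower by that much. They were Wfdc18, the complement factor gene Cfb at 121 against 30.4 CPM, and Pigr at 412 against 200 CPM. Pigr encodes the receptor that carries immunoglobulin A across epithelium. Cluster 15 had Cfb at 111 CPM and exceeded cluster 5 for Pigr, at 462. The whole defence list summed to 11237 CPM in cluster 5, ranking 6 of 16, where the other clusters ran from 4473 to 17714. Lactotransferrin (Ltf), the estrogen-responsive antimicrobial of the uterus, was not among the 3, at 2193 against 2363 CPM. A gene under 50 CPM in the other cells, such as Tff1, Agr2 or Muc13, could enter a list only through its level in cluster 5. Its ratio above 1 was then set by the filter. Counts of ratios above 1 and list medians are thus partly built in, here and in the lists below. Over all 2878 genes, 1462 had ratios above 1.

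Of 8 luminal markers named by the study, 5 reached 50 CPM, of which 4 had ratios above 1 and 3 passed 2-fold, with a median log2 ratio of 1.19. They were Lrmp, Ifi203 at 58.0 against 15.3 CPM and the integrin gene Itgam at 164 against 71.7. The study chose that list on these samples, so it is not independent evidence. Lrmp and Ifi203 were also under 50 CPM in the other cells and entered only through cluster 5. Of 7 genes of stratified epithelium that reached 50 CPM, 4 passed 2-fold. All 7 had ratios above 1, with a median log2 ratio of 1.03, and Krt5, Krt13, Sprr2f and Calml3 passed 2-fold. Krt5, Krt13 and Calml3 were under 50 CPM in the other cells, so the filter set their ratios above 1. Krt13, a keratin of non-cornified stratified epithelium, was at 80.0 CPM against 13.6, and Sprr2f, an estrogen-induced cornified envelope gene, at 5845 against 2862. The simple keratins and adhesion genes kept their level or exceeded it, with 11 of 11 at ratios above 1, none past 2-fold and a median log2 ratio of 0.35. Krt18 was at 1011 against 660 CPM and Krt19 at 898.5 against 649. Cluster 5 thus carried simple and stratified keratin transcripts together.

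The listed interferon-stimulated and antigen presentation genes mostly stayed within 2-fold. All 6 interferon-stimulated genes tested had ratios above 1 with a median log2 ratio of 0.74, and Irf7 (70.0 against 26.5 CPM) and Ifit1 (86.0 against 35.3 CPM) passed 2-fold. All 7 genes of MHC class I presentation were above 1, with a median of 0.69, and the immunoproteasome subunit gene Psmb9 passed 2-fold. Of 3 genes of MHC class II presentation 0 passed, with a median of 0.45. Outside the interferon list, the interferon-related genes Isg20 (ratio 7.42), Sp110 (4.35), Mndal (4.125), Ifi203 (3.785), Iigp1 (2.52), Plscr1 (2.29) and Gbp4 (2.20) were also higher. In contrast, Ifitm1 and Ifitm3, which encode antiviral membrane proteins and were also outside that list, were among the lower genes. They stood at 294 against 1535 and 704 against 2269 CPM. The 2 genes lie 39761 bases apart on chromosome 7.

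Transcription factors and signalling genes gave a mixed picture. Runx1 was at 128 against 53.8 CPM and Meis2 at 350 against 128, whereas Msx1, a homeobox gene of the uterine epithelium, was at 7.89 against 55.0, and Id2 and Id3 were also lower. Of 7 tested genes of the PI3K/AKT pathway, Sgk1 alone passed 2-fold, at 173 against 65.0 CPM. Pik3r1, which encodes a regulatory subunit of PI3K (chr13:101680563-101768217, minus strand), had a ratio of 0.770 and stood 14th of 16 clusters. Trp53 (chr11:69580359-69591873, plus strand) had a ratio of 0.729 and was lowest in cluster 5, and of its 9 tested pathway genes none passed 2-fold. Among 10 genes of the Wnt pathway only the receptor Fzd10 passed, at 21.9 against 51.4 CPM.

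Steroid-responsive genes also split. The estrogen receptor gene Esr1 stood at 207 CPM against 218, the progesterone receptor gene Pgr was lower at 47.8 against 99.4, and Padi2, which encodes an arginine deiminase, was higher at 216 against 58.8. Dhrs3, a retinaldehyde reductase gene, was higher at 428 against 158 CPM. Among antioxidant genes Gpx1, a glutathione peroxidase, was at 2552 against 1056 CPM, and Gsta4 and Prdx5 also passed 2-fold, while the median of the 18 tested was 0.09.

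The lower genes included surface peptidases and metal-binding proteins. Mme, which encodes neprilysin (chr3:63241537-63386030, plus strand), had the lowest ratio, 0.0914, from 5.30 against 58.0 CPM, and the aminopeptidase gene Anpep was at 167 against 409. The metallothionein genes Mt1 (155 against 415.5 CPM) and Mt2 (35.6 against 124 CPM) are neighbours 5514 bases apart on chromosome 8 and were both lower. Ifitm1 (chr7:140967221-140969825, plus strand) was the most abundant gene below 0.25-fold. Hmga2, a chromatin protein of growing tissues, was at 26.9 against 101.5 CPM, Stmn1, a microtubule regulator linked to proliferation, at 41.7 against 128, and Mycn at 21.9 against 50.1. Ribosomal protein genes were slightly lower as a group, with 42 of 48 below a ratio of 1 and a median log2 ratio of -0.12. Their sum of 143594 CPM ranked 13 of 16, within the 132295 to 180318 of the other clusters. Of 10 glycolytic genes, 9 were below 1 with a median of -0.29, and their sum of 2139 CPM lay within 2091 to 3435. Over all 2878 genes, 1416 had ratios below 1.

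**Figure D3:**
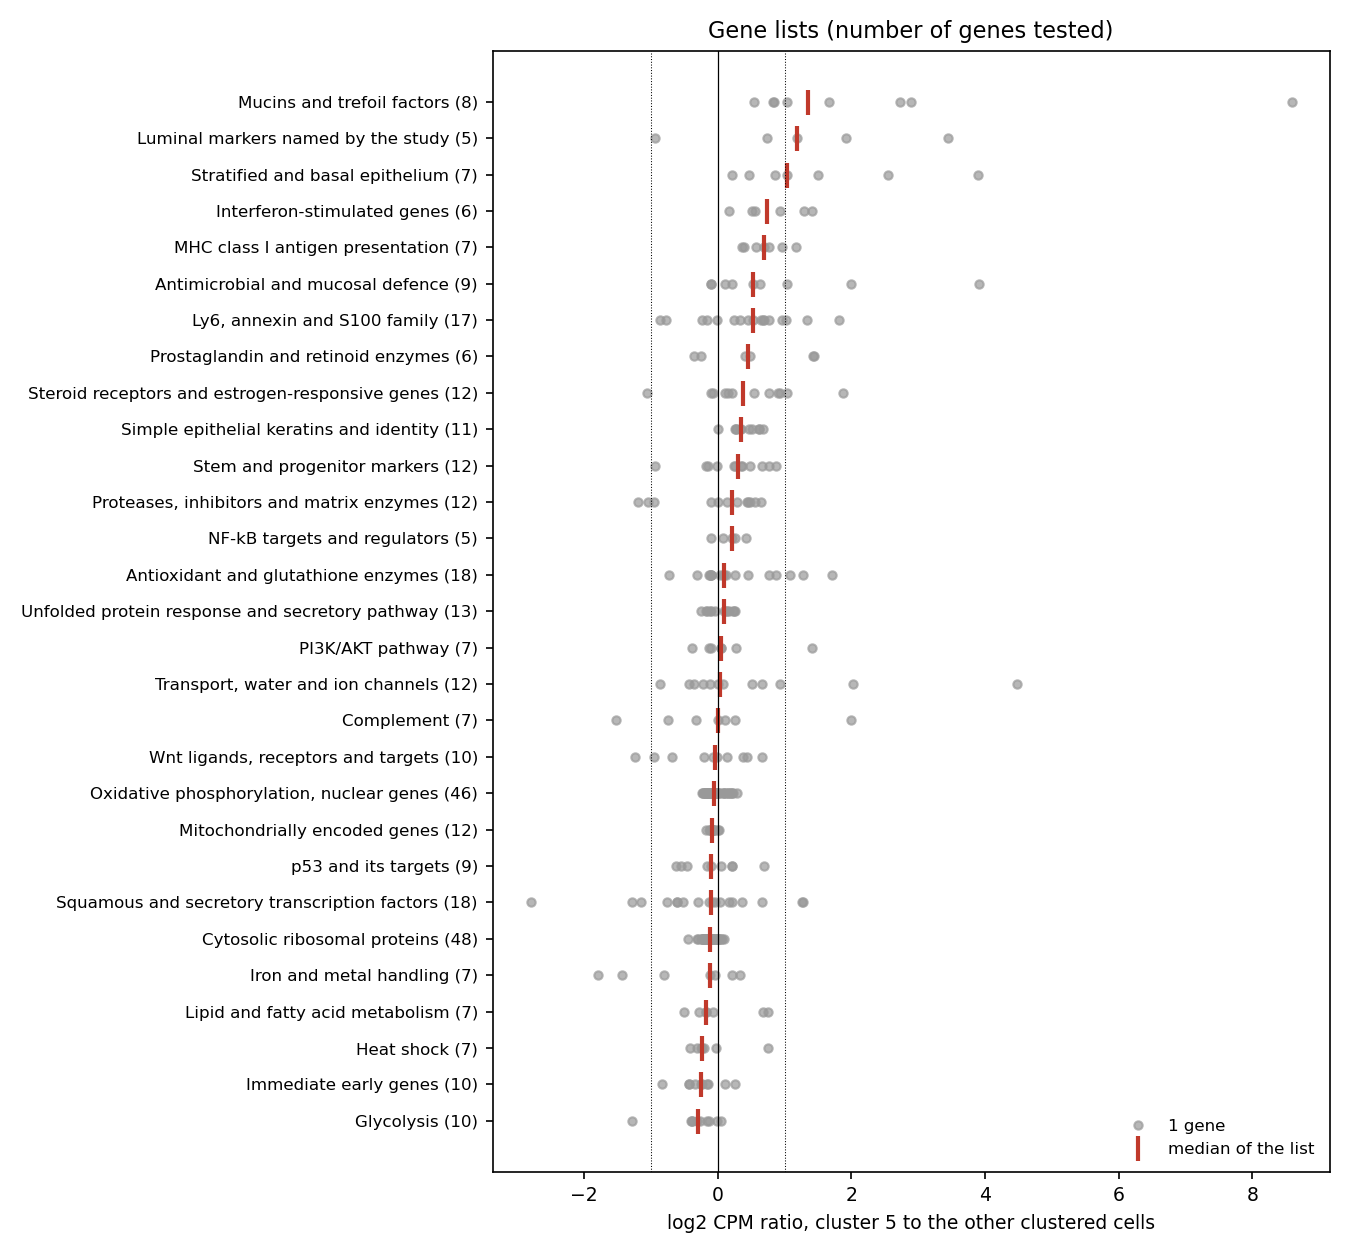
Log2 ratio of CPM in cluster 5 to the other clustered cells for the genes of each list (grey points) with the list's median (red bar), the number of genes that reached 50 CPM in parentheses and dotted lines at 2-fold. Mucins and trefoil factors have the highest median, 1.35, and glycolysis the lowest, -0.29.

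CO epithelium offered a second reference. Of the 101 higher genes, 59 were below 50 CPM in CO epithelium, and among them were Olfm4 (0.965 CPM), Krt5 (0.305), Upk1a (1.10), Ccl6 (2.26) and Rad51b (18.1). In contrast, 51 of the 101 were above the other DES cells in CO epithelium and 19 were above cluster 5 itself. Prap1 at 7074 CPM, Lrmp at 93.2 and Aqp4 at 62.6 in CO epithelium were near the level of cluster 5, and Padi2 at 533 and Sprr2f at 14407 exceeded it. Of the 49 lower genes, 37 were also lower in CO epithelium than in the other DES cells. The higher and lower genes were both chosen by their ratio to the other DES cells, which bears on the 51 and the 37. The shares over all compared genes are not given here, so these counts describe the listed genes only.

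Among DES clusters, cluster 1 was the most like cluster 5, with a Pearson r of 0.945 over the 2878 genes on the log2(CPM + 1) scale, and clusters 6, 10 and 0 followed closely at 0.928, 0.926 and 0.925. By the mean absolute log2 difference cluster 1 was again nearest, at 0.256, with cluster 0 at 0.291 and cluster 6 at 0.328. These correlations run across genes of 1 library, which are not independent. The higher genes were shared most widely with clusters 14 and 1, where 51 and 47 of the 101 reached at least 50% of their level in cluster 5. The 101 were chosen for their ratio to the other clusters pooled, which bears on these counts. The shares over all compared genes are not given here.

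Within cluster 5 the leading genes were not evenly spread. The authors' clustering of both libraries together placed 207 of the 295 cells in its cluster 10, 48 in its cluster 4 and 40 elsewhere. Tff1 was at 251 CPM in the first of these groups, 7.86 in the second and 9.89 in the third. Ccl6 (433, 18.1 and 4.39 CPM), Wfdc18 (391, 29.1 and 6.59 CPM) and Rad51b (681, 79.4 and 71.4 CPM) were likewise highest in the first group. Rad51b was therefore no higher in the other 88 cells than the 86.8 CPM of the other clusters. Olfm4 (843, 287 and 74.7 CPM) and Krt5 (774, 278 and 212 CPM) were graded, and Upk1a (444, 403 and 279 CPM) was nearly even. Prap1 was highest in the group of 48, at 12074 CPM, against 9198 and 2819. Of the 101 higher genes, 99, 63 and 35 were at least 2-fold above the other clusters in the 3 groups, while 0, 0 and 5 were at least 2-fold below. Of the 49 lower genes, 49, 32 and 23 were at least 2-fold below the other clusters. Both sets were chosen on the sums over all 295 cells, most of them in the first group. The counts of that group were thus largely set by the choice, and lower counts in the smaller groups follow partly from it. The shares over all compared genes are not given here.

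**Figure D4:**
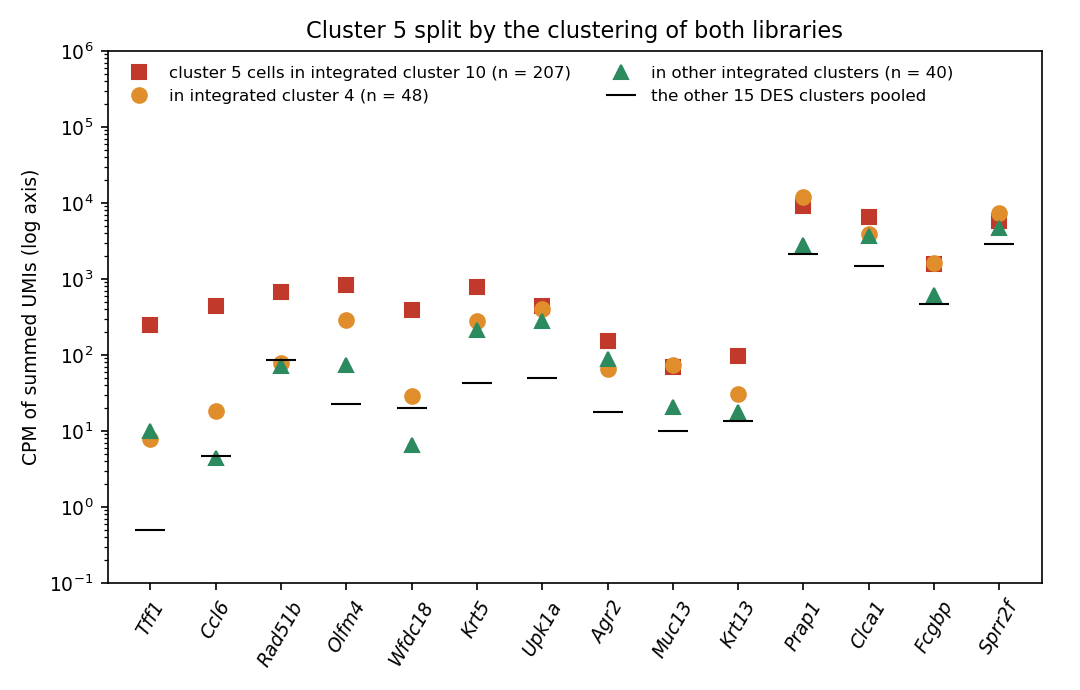
Levels of 14 higher genes in the 3 groups of cluster 5 cells defined by the clustering of both libraries, in CPM on a log axis, with black bars for the other 15 DES clusters pooled. Rad51b and Wfdc18 lie near or below the bar in the 2 smaller groups, whereas Upk1a, Prap1 and Sprr2f lie above it in all 3.

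A further 74 DES cells of integrated cluster 10 lay outside cluster 5. They had 4.27 CPM of Tff1, 89.7 of Olfm4, 120 of Rad51b and 292 of Krt5, below the cluster 5 cells of that integrated cluster for each gene.

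Single cells differed more widely still. Tff1 had no UMI in 210 of the 295 cells, and 30 cells held 91.9% of its UMIs. Ccl6 had none in 178 cells and Wfdc18 none in 168, with 79.7% and 91.6% of the UMIs in 30 cells. Rad51b was missing from only 63 cells, with a median of 103 CPM, but reached 9496 CPM in 1 cell, and 30 cells held 75.1% of its UMIs. Olfm4 (median 193 CPM, 85 cells at 0) and Krt5 (median 366 CPM, 84 cells at 0) were spread over more cells, and Prap1 was missing from 1 cell with a median of 6256 CPM. The sums given above for Tff1, Ccl6, Wfdc18 and Rad51b thus rest largely on about 30 cells each.

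The cells at the top overlapped for some genes and not for others. The 30 highest cells for Ccl6 shared 17 with those for Wfdc18 and 15 with those for Rad51b, where the product of the shares gives 3.05. Olfm4 shared 11 with Krt5 and 11 with Rad51b, 5 with Tff1 and 1 with Clca1. Across the 295 cells, which come from 1 library and differ in depth, Spearman's rho was 0.630 for Olfm4 and Krt5 and 0.652 for Clca1 and Fcgbp. Krt5 shared 2 with Clca1 and 2 with Fcgbp, near the 3.05 of the product, and Olfm4 shared 5 with Fcgbp.

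Depth was set equal by thinning each cell to 3000 UMIs, which left out 5 cells of cluster 5 and 44 of the other clusters. Olfm4 was then detected in 47.2% of cluster 5 cells (41.4 to 53.2%) against 4.08% of the other clusters, 1.48% of DES mesothelial cells, taken as the background of free RNA (median depth 12329 UMIs), and 0.351% of CO epithelial cells. Krt5 was detected in 56.2% against 8.74%, with 2.35% in mesothelial cells. Tff1 was detected in 15.9% against 0.117%, with 0.185% in mesothelial cells, and in 0 of 2562 CO epithelial cells, which allows a share of cells with a UMI at that depth of up to 0.117%. At full depth 7 of 2583 CO epithelial cells had a Tff1 UMI. Rad51b was detected in 40.3% against 21.4%. Trp53 was detected in 20.3% of cluster 5 cells, 29.4% of the other clusters and 18.8% of CO epithelial cells. For Pik3r1 the shares were 31.4%, 43.2% and 23.4% in the same order, so neither gene was detected less often than in CO epithelium. Olfm4 and Rad51b were found together in 78 of 290 cells (26.9%), where the product of the shares gives 19.1%.

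Some of the leading genes were also carried by cell types outside the epithelium. Ccl6 was at 3348 CPM in a group of 136 DES myeloid cells high in Lyz2, which held 45.4% of the library's Ccl6 UMIs, and was detected in 51.6% of thinned lymphocytes. Rad51b was at 264 CPM in DES mesothelial cells, which held 42.0% of its UMIs, and at 129 CPM in CO mesothelial cells. The 48.9% of thinned mesothelial cells with a Rad51b UMI exceeded the share in cluster 5. Olfm4 was at 3.73 CPM in mesothelial cells. Whether RNA from myeloid cells contributed to Ccl6 in cluster 5 was not tested, and the myeloid markers there summed to 77.1 CPM, as given above.

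Whole tissue sections gave a measurement that cluster membership did not use. The 4 sections held 1433 and 1834 spots (CO A and B) and 1575 and 1357 spots (DES A and B), with 9117099 to 12506177 UMIs. The study reported a large tissue fold in CO B and limited cluster identification in DES B. It ran most of its analyses on 1 section per group, whereas all 4 sections were used here. A spot can hold several cells, and in summed sections fewer cells of a type and less RNA per cell cannot be told apart. Epithelial markers summed to 2938 and 1824 CPM in CO and 3048 and 3283 in DES, while muscle markers summed to 12151 and 13677 CPM in CO and 3296 and 3756 in DES, so the tissue captured differed between groups, and the part of that difference in the results was not tested. Of the 14098 genes tested, 376 (2.67%) were higher in DES and 371 (2.63%) lower. Of the 101 higher genes of cluster 5, 25 (24.8%) rose in DES and none fell, and of the 49 lower genes 10 (20.4%) fell and 2 rose. Among the 2877 tested genes that also passed the 50 CPM filter of the single cells, 2.68% rose and 1.91% fell. By DESeq2, 42 of the 101 rose, and of the 49 lower genes 25 fell and 4 rose. Over the 2877 genes, 5.98% then rose and 6.22% fell. With 2 sections a group the counts depended on single sections, and the 25 became 1 without DES B, 3 without DES A, 46 without CO A and 40 without CO B. Over the 2877 genes, the share that rose became 0.0348%, 0.139%, 13.3% and 7.58% in the same order. Of the 101, 3 fell without CO A, 6 without CO B and 3 by DESeq2. The 10 became 0 without either DES section and 24 without either CO section, where the share of the 2877 genes that fell was 0% without DES A or B, 8.1% without CO A and 9.25% without CO B.

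Olfm4 was at 0.400 and 2.18 CPM in CO A and B and at 1534 and 1340 in DES A and B. The 2 groups did not overlap, and spots with an Olfm4 UMI were 0.349 and 0.872% of CO and 66.5 and 74.1% of DES spots. Neutrophil markers summed to 17.9 and 17.3 CPM in CO and to 279 and 28.8 in DES, and their part in the Olfm4 level was not tested. The log2 fold change of Olfm4 was 9.94 (SE 0.77, Benjamini-Hochberg adjusted p = 0.0183 in the quasi-likelihood test of edgeR). Tff1 was at 0.160 and 1.99 CPM in CO and 329.5 and 852 in DES (log2 fold change 8.95, SE 1.12, edgeR Benjamini-Hochberg adjusted p = 0.0276). Upk1a had the smallest adjusted p of the 25, with 0.800 and 0.906 CPM in CO and 193 and 207 in DES (log2 fold change 7.65, edgeR Benjamini-Hochberg adjusted p = 0.00793). Without DES A the adjusted p of edgeR with Benjamini-Hochberg adjustment was 0.0515 for Olfm4 and 0.0557 for Tff1, and without DES B 0.0577 and 0.0714. The log2 fold changes were then 9.87 and 9.48 without DES A and 9.99 and 8.04 without DES B. Without CO A they were 9.17 and 8.03, and without CO B 11.54 and 11.54. Upk1a passed without any 1 of the 4 sections. The other genes that rose included Wfdc18 (log2 fold change 3.66), Ccl6 (2.78), Runx1 (3.57), Muc13 (3.07), Aqp4 (2.43) and Lrmp (4.71). Myeloid markers summed to 334 and 677 CPM in CO and 2060 and 1153 in DES, and plasma cell markers to 254 and 202 in CO and 1069 and 1304 in DES, and their part in these rises was not tested. Of the mucin and trefoil genes that were higher in cluster 5, Tff1 and Muc13 passed, whereas Agr2 (log2 fold change 0.79), Muc4 (-0.32) and Fcgbp (-0.11) did not.

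Rad51b and Krt5 did not pass. Rad51b was at 85.8 and 72.9 CPM in CO and 137 and 282.5 in DES (log2 fold change 1.203, SE 0.40, edgeR Benjamini-Hochberg adjusted p = 0.157). The DES values were above both CO values but differed 2-fold between themselves. Krt5 was at 0.800 and 93.5 CPM in CO and 5276 and 3562 in DES, a log2 fold change of 6.36 with an SE of 1.99, since CO B alone of the CO sections carried Krt5 (edgeR Benjamini-Hochberg adjusted p = 0.142). With the DESeq2 Wald test the Benjamini-Hochberg adjusted p was 0.0308 for Rad51b and 0.0249 for Krt5, and Krt5 also passed in edgeR without CO A (0.00492) or without CO B (0.00286). Basal markers summed to 4.16 and 218 CPM in CO and 10352 and 6497 in DES. Prap1 did not pass, at 2925 and 30910 CPM in CO and 1767 and 2949 in DES, with a log2 fold change of -3.02. It was -3.89 without CO A (edgeR Benjamini-Hochberg adjusted p = 0.00938) and -0.54 without CO B (0.355). Of the lower genes, Hmga2 fell by 5.48 on the log2 scale, from 12.7 and 25.2 CPM to 0.877 and 0.101, and Ifitm1, Msx1, Mycn and Cfi fell as well, while Fzd10 and Scx rose.

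Within DES sections, epithelial spots rich in Olfm4 were compared with those poor in it. Epithelial spots were the highest 33.3% of a section by the 5 epithelial markers, and the highest and lowest 25% of these by Olfm4 gave 132 and 132 spots in DES A and 114 and 114 in DES B. Olfm4 itself, at 3790 against 183 CPM in A and 3136 against 373 in B, defined the spots and was left out. Epithelial markers were nearly equal, at 4309 and 4372 CPM in A and 4578 and 4429 in B. Median depth was higher in the rich spots (9793 against 4995 UMIs in A, 8756 against 5354 in B), and so were neutrophil markers (964 against 25.6 CPM in A, 75.3 against 12.9 in B) and basal markers (14118 against 3922 CPM, 8785 against 4917). Of 9805 genes tested, 552 (5.63%) were higher in rich spots and 357 (3.64%) lower.

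Of 100 higher genes of cluster 5 tested, 42 (42%) rose in Olfm4-rich spots and 10 fell, and of 42 lower genes tested 22 (52.4%) fell and 2 rose. Among the 2859 tested genes that passed the single-cell filter, 6.37% rose and 6.3% fell. The fit has 1 residual degree of freedom and borrows spread across genes, and both neutrophil markers and depth moved with the spots. Over spots with no UMI of a neutrophil marker, 9 of 8836 genes changed in all, 2 of 100 higher genes rose, none fell, and 1 of 40 lower genes fell. The median log2 fold change of the 100 was 0.41 there and 0.41 over all the chosen spots, with 74 and 70 above 0. The lower genes had medians of -0.67 and -0.95. By DESeq2 13 of 100 rose and none fell, and 3 of 42 lower genes fell, where 0.769% of the 2859 genes rose and 0.63% fell. Without the section as a block, 9 of 100 rose, 4 of 42 lower genes fell and 2 rose, where 0.979% of the 2859 genes rose and 0.56% fell.

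Tff1 was at 878 CPM in rich and 48.6 in poor spots of DES A and at 2743 and 495 in DES B (log2 fold change 3.14, SE 0.20, edgeR Benjamini-Hochberg adjusted p = 3.65e-15). The direction was the same in both sections, though the log2 ratio was 4.15 in A and 2.47 in B, and Tff1 kept its call over spots with no neutrophil marker (log2 fold change 2.82, edgeR Benjamini-Hochberg adjusted p = 0.0451) but not without the section block (log2 fold change 2.72, adjusted p = 0.192). Krt13 was at 942 and 98.5 CPM in A and 941 and 208 in B, with a log2 fold change of 2.67, and it also kept its call over those spots (edgeR Benjamini-Hochberg adjusted p = 0.0277). Wfdc18 (2.84), Agr2 (2.08), Calml3 (2.02), Aqp4 (1.91), Lrmp (1.76), Muc13 (1.48) and Runx1 (1.46) rose too. Agr2 had log2 ratios of 4.11 in A and 0.82 in B. Over spots with no neutrophil marker only 2 of the 100 higher genes rose, Tff1 and Krt13. The calls of Wfdc18, Agr2, Calml3, Aqp4, Lrmp, Muc13 and Runx1 were thus lost there. Krt5 rose from 2250 to 7083 CPM in A and from 2765 to 4910 in B (log2 fold change 1.24), and over spots with no neutrophil marker its log2 fold change was 1.398 (edgeR Benjamini-Hochberg adjusted p = 0.128). Over all the chosen spots, Tff1, Agr2 and Muc13 of the mucin and trefoil genes thus rose, while Muc4 (0.00) and Fcgbp (-0.19) did not pass. Of the stratified genes, Krt5, Krt13 and Calml3 rose over those spots, while Sprr2f (-0.22) did not pass.

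Not every leading gene went with Olfm4. Rad51b was at 103 CPM in rich and 266 in poor spots of A and at 246 and 377 in B, a log2 fold change of -0.97 (SE 0.18, edgeR Benjamini-Hochberg adjusted p = 0.000112). Prap1 was at 704.5 against 4408 and 2591 against 5331 CPM (log2 fold change -1.84) and Upk1a at 124 against 324 and 202 against 259 (-0.86). These 3 genes were lower in the rich spots of both sections, opposite to their place in cluster 5, and the calls were lost over spots with no neutrophil marker, where the log2 fold changes were -0.76 for Rad51b, -1.18 for Prap1 and -0.33 for Upk1a (edgeR Benjamini-Hochberg adjusted p = 0.14, 0.0573 and 0.461). They were also lost by DESeq2, with log2 fold changes of -0.996, -1.851 and -0.876, and without the section block, with -0.89, -1.56 and -0.83. Ccl6, Clca1 and Fcgbp did not pass. The lower genes moved mostly as in cluster 5, with Cfi, a complement regulator, at 2.32 against 93.4 and 1.61 against 53.8 CPM (log2 fold change -5.15), Anpep at -2.75 and Ifitm1 at -1.59, while Pgr (1.11) and C2cd4a (1.23) rose.

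**Figure D5:**
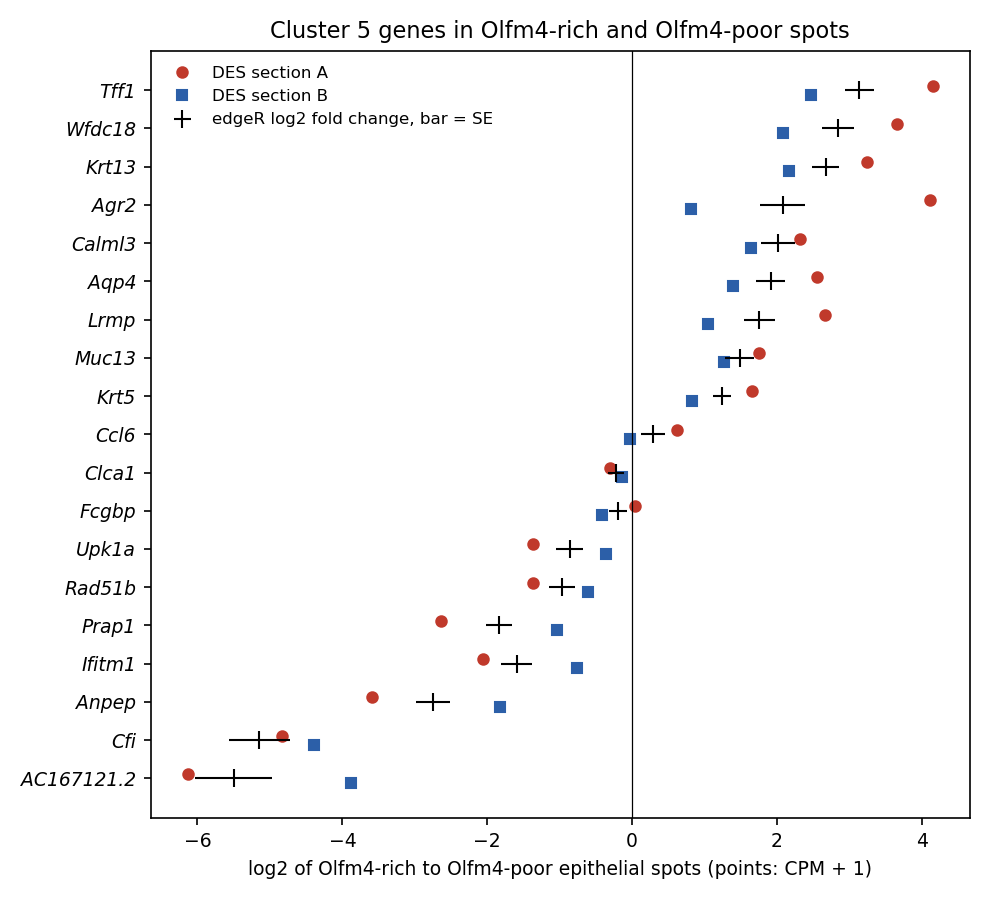
Log2 ratio of Olfm4-rich to Olfm4-poor epithelial spots for 19 genes, in DES section A (red circles) and DES section B (blue squares) on the log2(CPM + 1) scale, with the edgeR log2 fold change and its SE as black crosses. Tff1, Wfdc18 and Krt13 lie to the right in both sections and Prap1, Rad51b, Anpep and Cfi to the left.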

How the data were processed

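Cells were processed by the authors with Cell Ranger 3.0.1 and sections with Space Ranger 1.2.2 on mm10. They deposited raw UMI counts per gene and cell or spot, and metadata with reads per cell, cell types, cluster numbers and a saturation fraction, which was not used. Replicate sections were not pooled by the authors. Here counts were summed over the cells of a cluster and divided by the total. Ratios of CPM carry exact conditional binomial 95% intervals, and CPM exact Poisson intervals. Genes of at least 50 CPM in either group were compared at 2-fold. Gene spans are from GENCODE M21 (GRCm38).

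Sections were fitted with edgeR 4.0.16 in R 4.3.3 (quasi-likelihood test, TMM, filterByExpr, Benjamini-Hochberg threshold 0.05). The spot comparison had the section as a block, and DES against CO had none, since letters A and B share no animal. The fits were tested on simulated data, where DES against CO recovered 79 of 100 genes changed 4-fold and 19 of 100 changed 2-fold over 14098 genes, and the spot comparison 90 and 55 over 9805. Named genes were the highest and lowest ratios, markers, the study's own genes and members of gene lists. The members and lists were chosen with earlier results of these data known. Some genes are not reported here. In no comparison of 2 against 2 sections can an exact permutation test reach the threshold, so only model-based p-values are given. For DES against CO they draw on the spread between these sections and on spread borrowed across genes. In the spot comparison, with 1 residual degree of freedom, they rest mainly on the borrowed spread. Agr2 there had log2 ratios of 4.11 in A and 0.82 in B with an SE of 0.31. Alternatives covered the CPM minimum, cell filters, thinning, Scrublet and Leiden clusters (scanpy 1.11.5), DESeq2 1.42.0, filters, blocks and leaving out sections.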

Additional observations from a re-analysis of the deposited data

Results flagged for a closer look

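3 leading genes of cluster 5 were also found in DES cells that the authors' annotation gave no cell type, which no comparison above used. These were 6611 cells with a median of 2178 UMIs. Olfm4 was at 284.7 CPM there, against 0.472 in CO cells with no cell type, and 505 of the cells had a UMI. They held 49.0% of the library's Olfm4 UMIs. Tff1 was at 103.7 CPM against 4.96, in 117 cells that held 70.9% of its UMIs. Krt5 was at 205.2 CPM against 0.0766, in 727 cells. The cluster 5 cells are therefore not the whole of the library's Olfm4 and Tff1, and whether cells of the same kind are among the cells with no cell type was not tested.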

How the results depend on the processing

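The counts of 101 higher and 49 lower genes became 174 and 113 with a minimum of 20 CPM. Over the other alternatives, among them thinning, other totals, a stricter cell filter, Scrublet, a Leiden cluster and integrated cluster 10 cells only, the counts stayed within 1.5 times. The sizes of single ratios moved more often, beyond their counting intervals for 65 of 106 named genes with thinning, 63 with integrated cluster 10 cells only, 55 with the mean over cells, 47 with the unweighted mean of the other clusters, 35 with the Leiden cluster, 12 with other totals, 2 with the stricter filter, 1 without shared barcodes and 0 without Scrublet doublets. The alternative of integrated cluster 10 cells only, the one without shared barcodes and the one without neutrophil markers were chosen after seeing the data. No named ratio or fold change that was called reversed. The 747 genes changed between DES and CO sections became 1791 with DESeq2, and leaving out 1 section gave from 3 to 2819. With the section letter as a replicate block the count was 527. Deviations of same-letter sections had r = -0.0249 over 14098 genes, and the letters mark no shared animal. The 909 genes of the spot comparison became 83 with DESeq2, 116 with no replicate block, 402 with the highest 25% of spots by epithelial genes, 493 with the highest and lowest 50% by Olfm4 and 9 over spots with no neutrophil marker UMI. The cause of these changes was not tested. Leaving out a section in the spot comparison was not run, since no residual degree of freedom remained. Depth limits the single cells to genes of 50 CPM, and 1 pooled library gives no spread between mice.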

Other observations

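Spot clusters of the DES sections separated 2 of the genes that marked cluster 5. In DES A, Olfm4 was at 2531 CPM (2478 to 2584) in spot cluster 1 and at 2551 (2438 to 2668) in spot cluster 8. Tff1 was at 688 CPM in the former and 245 in the latter, and Ccl6 at 134 and 1301. In DES B, Olfm4 was highest in spot cluster 7 at 2604 CPM (2522 to 2687), where Tff1 reached 3963 CPM and Ccl6 205. Regions with near-equal Olfm4 thus differed severalfold in Tff1 and Ccl6, each in 1 section without replicates.

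Some of the genes that differed in cluster 5 lie close together on a chromosome. Among higher genes, Ccl6 and Wfdc18 on chromosome 11 are 115928 bases apart, Krt84 and Krt5 on chromosome 15 are 174250 apart, Ces2b and Ces2g 121625, and S100a1 and S100a14 12464. Among lower genes, Thrsp and Kctd14 are 33593 bases apart. Ccl6 and Wfdc18 also shared 17 of their 30 highest cells, as given above, but Rad51b on chromosome 12 shared 15 with each of them. Whether nearness goes with shared cells was not tested. The rate of such neighbours over all compared genes is not given here.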
